A study of Mus musculus with 5 samples.

Results

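Foxf1 peaks that lie inside protein-coding genes, away from the gene ends, were described by host gene, by number per gene and by function corrected for gene length. Foxf1 binding was mapped by chromatin immunoprecipitation and sequencing (ChIP-seq) in E14, a mouse embryonic stem cell line, carrying an inducible construct that overexpresses Foxf1 with an HA tag. The cells were kept 48 h as embryoid bodies and 40 h as re-aggregates with VEGF, Activin A and BMP4 (the MES stage), then 32 h as a monolayer with VEGF, basic FGF and FGF10 (the CP stage). The series holds 2 Foxf1-HA libraries and 1 input library at CP, and 1 Hand1-HA library (a knock-in line) and 1 input library at MES. The peaks described here come from 1 list of 5703 lines, filed with Foxf1-HA replicate 1, and without a second list there is no error between replicates here; intervals cover counting error only. An overexpressed factor may occupy sites that it does not occupy at its native level, and the way the construct was induced is not given in the sources used here. The lists hold no expression values, so the CP label could not be checked against marker genes.

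A peak was a member when its summit lay within a protein-coding gene of the RefSeq table for GRCm38, more than 1 kb from both ends of every protein-coding gene, on chromosomes 1 to 19 or X, and when it shared no base with a Hand1 peak. This left 2042 of the 5638 Foxf1 peaks on those chromosomes (36.2%, exact 95% interval 35.0% to 37.5%). A further 1418 lay within 1 kb of a gene end, 2006 lay outside protein-coding genes, and 172 overlapped a Hand1 peak. The members were chosen by the authors' peak calls and the summit positions, so these counts are a description. Just inside the 1 kb limit were a summit in Hdac11 at 1005 bp (fold enrichment 9.21) and one in Gm572 at 1009 bp (9.42). Just outside it were summits in Mapk3 and Plpp3, both at 998 bp, with folds of 13.5 and 9.96. The fold enrichment throughout is the authors' value for the summit, a linear ratio to the peak caller's background.

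Foxf1 is a forkhead transcription factor of the lateral plate and splanchnic mesoderm, where it acts downstream of Hedgehog signalling and is needed for the mesenchyme and vessels of the gut and lung. Forkhead proteins bind a core sequence close to TGTTTAC, often in enhancers. Introns of long genes carry many enhancers, and a gene body can also hold further promoters from which shorter transcripts begin. A summit inside a gene is therefore not evidence that the host gene itself is the one controlled.

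Sequence could be read where a summit fell in one of the 32619 promoter windows of the RefSeq table (250 bases before to 50 after an annotated transcription start). This was so for 83 members in 92 windows, 0.282% of all windows. For 73 of the 83, the window belonged to the host gene itself, as an internal start. The forkhead letters TGTTTAC or their reverse complement GTAAACA stood in 10 of the 92 windows (10.9%, exact interval 5.34% to 19.1%), in 45 of the 589 windows that held a Foxf1 summit near a gene end (7.64%), in 6 of the 46 that held one outside genes (13.0%, interval 4.94% to 26.3%), and in 3.67% of all windows. GC content moved with this: its median was 64.8% in the 92 windows and 53.0% in all of them. Where GC was 65% or more, 5 of 46 member windows held the letters (10.9%, interval 3.62% to 23.6%) against 1.33% of all such windows. Between 50% and 65% GC the share was 1 of 39 (2.56%) against 2.77%, and under 50% it was 4 of 7 against 5.78%. The share in member windows was thus above that of all windows in the GC-rich and GC-poor classes, on few windows, and not in the middle class. Windows with a summit near a gene end held the letters in 20 of 299 at 65% GC or more (6.69%). For them it was 24 of 284 in the middle class (8.45%) and 1 of 6 under 50%. A share above that of all windows was therefore not particular to members.

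The other motifs searched gave the following shares, over all GC classes unless a class is named. The letters AGATAA, a core bound by GATA factors, stood in 5 of the 92 windows (5.43%) against 11.2% of all. The GATA share of all windows fell with GC, from 19.8% under 50% to 1.66% at 65% or more. Member windows held these letters in 2 of 7 (28.6%) under 50% and in 1 of 46 (2.17%) at 65% or more. Between 50% and 65% it was 2 of 39 (5.13%) against 7.498%. The GATA share in member windows was thus lower only in the middle class, on few windows. The letters of TEAD factors, GGAATG, stood in 14 of the 92 windows (15.2%) against 14.6%. Between 50% and 65% GC they stood in 10 of 39 (25.6%) against 15.4%. In the other classes the share was slightly lower than in all windows: 1 of 7 (14.3%) against 16.9% under 50%, and 3 of 46 (6.52%) against 8.02% at 65% or more. The T-box core GGTGTGA stood in 3 (3.26%) against 3.98%, and the octamer core TGCAAAT in 1 (1.09%) against 4.05%. The 1 octamer window was among the 7 under 50% GC. The octamer share of all windows also fell with GC, from 6.67% under 50% to 1.11% at 65% or more. Both strands were searched for each, and none was tested. The middle of the forkhead match lay within 50 bp of the summit in 8 of the 10 windows (median distance 34 bp, largest 139 bp). The stretches around 7 of these 8 summits are shown 5′ to 3′ on the strand of the annotated start, from RefSeq (GRCm38.p6), with the forkhead letters in capitals, to show how close the letters stand to the point of highest signal. All end before the annotated start.
Bbc3 (chr7:16310068-16310188, plus strand): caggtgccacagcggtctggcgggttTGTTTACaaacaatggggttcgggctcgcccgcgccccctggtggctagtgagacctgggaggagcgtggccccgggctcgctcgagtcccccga
Tnrc18 (chr5:142817771-142817891, minus strand): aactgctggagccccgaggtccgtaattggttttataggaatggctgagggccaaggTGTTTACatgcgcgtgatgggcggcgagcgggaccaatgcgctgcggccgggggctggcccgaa
Pim1 (chr17:29492914-29493034, plus strand): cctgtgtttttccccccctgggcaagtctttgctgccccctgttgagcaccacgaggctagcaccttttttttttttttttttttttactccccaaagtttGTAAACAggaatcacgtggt
5730596B20Rik, inside Hoxa3 (chr6:52177045-52177154, plus strand): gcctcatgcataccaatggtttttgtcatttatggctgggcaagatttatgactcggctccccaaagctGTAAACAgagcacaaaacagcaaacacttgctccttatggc
Adipor2 (chr6:119388806-119388926, minus strand): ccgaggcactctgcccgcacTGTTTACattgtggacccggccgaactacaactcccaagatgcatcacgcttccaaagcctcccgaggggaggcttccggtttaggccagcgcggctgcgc
Tprgl (chr4:154160823-154160934, minus strand): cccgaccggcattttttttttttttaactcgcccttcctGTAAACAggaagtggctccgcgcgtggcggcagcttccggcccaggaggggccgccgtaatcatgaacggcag
Cux1 (chr5:136566118-136566231, minus strand): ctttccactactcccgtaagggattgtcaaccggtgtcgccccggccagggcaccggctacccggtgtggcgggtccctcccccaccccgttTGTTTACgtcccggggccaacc

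At Bbc3, which encodes the pro-apoptotic protein PUMA, the peak (chr7:16309471-16310575) had a fold of 17.6 with 102 fragments at the summit, the highest fold among the peaks in windows. Its forkhead letters were centred 31 bp from the summit. At Tnrc18 the letters were centred on the summit itself (0 bp), with a fold of 14.5. At Pim1, a serine/threonine kinase gene, the distance was 44 bp and the fold 13.4. Inside Hoxa3, at the start of the transcript 5730596B20Rik, the distance was 12 bp and the fold 10.2. The 3 weaker ones were Adipor2 (fold 8.64), Tprgl (6.88) and Cux1 (6.63), at 37, 9 and 42 bp. Match and fold did not go together throughout: the peak of second highest fold in a window, at Cilk1 (17.3), had no such letters in its window, nor had Fam171a1 (13.9). These genes are named for their sequences and were chosen after their values were seen.

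The members were mostly of moderate height. Their fold ran from 4.32 to 37.9 with a median of 7.61 and an interquartile range of 6.70 to 8.96. Medians were 7.60 for peaks near a gene end and 7.73 for peaks outside genes. The number of fragments at the summit, calculated by solving the peak caller's equations for fold and p-value, had a median of 27 (18 to 220), against 34 near gene ends and 27 outside genes. Median widths were 491, 630.5 and 478 bp. Peaks inside genes thus resembled those outside genes in height and width in this list.

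The control level, the background in fragments that the same equations give at the summit, was rarely high in members. A high level, set at 7.83 fragments or more (5 times the lowest value), was found for 11 of 2042 members (0.539%, exact interval 0.269% to 0.962%), against 2.71% of all Foxf1 peaks on these chromosomes. It was found for 25 of the 1418 peaks near gene ends (1.76%; odds ratio 0.302, two-sided Fisher's exact test, p = 0.000906, adjusted p = 0.000906 over 2 tests). For the 2006 peaks outside genes it was 55 (2.74%; odds ratio 0.192, Fisher's exact test, p = 1.35e-08, adjusted p = 2.70e-08). Fisher's test counts each peak as independent, but some members of high level lay near each other on chromosome 14. These were in Gm32966 (9.49, and 13.9 where it overlaps Gm8108), LOC115488283 (9.01) and Gm3667 (28.2). The p-values may therefore be too small. These tests compare peaks of 1 list, not conditions. The first did not pass among peaks of −log10 q-value of at least 15 (odds ratio 0.490, Fisher's exact test, p = 0.112), and the second did not pass when a high level began at 3 times the lowest (0.894, p = 0.358).

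The member of highest fold lay in Ebf2, which encodes an early B-cell factor family transcription factor of mesoderm and brown fat precursors. Its summit (chr14:67344632-67345356) held 97 fragments over a control level of 1.59, a fold of 37.9, and lay 86.0 kb from the nearer gene end. A separate Ebf2 peak, 5.57 kb from an end, had a fold of 8.18. In Cd300e, an immune receptor gene, 1 region (chr11:115062624-115063830) carried a pair of summits with folds of 32.1 and 15.04. Twf2, which encodes an actin-binding twinfilin, held a peak of fold 31.3 (chr9:106211690-106212656).

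Dmd, the dystrophin gene and the longest gene of this group at 2390 kb, held a single peak (chrX:83674986-83675453). It had a fold of 29.2 with 74 fragments over a control level of 1.57, and its summit lay 861 kb from the start of the gene. Tmem132c had a peak of fold 28.8, 159 kb from a gene end. In T2, 1 region carried summits of fold 25.6 and 7.18, the higher 219 bp from an annotated start of another gene. Stab2, a scavenger receptor of sinusoidal endothelium, had a fold of 24.2, and further hosts were Iscu (23.5), Epb41l2 (23.5), Tenm3 (23.0), Ism1 (20.7), Niban2 (20.4) and Camta1 (20.3). Control levels at the 15 summits of highest fold ran from 1.57 to 4.04, all under the limit for a high level. Of their 15 host genes, 4 held a further member: in Cd300e and T2 it lay in the same region as the first, in Ebf2 apart from it, and Camta1 held 3 separate members with folds of 20.3, 13.2 and 8.38.

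The 2042 members lay in 1744 of 21627 protein-coding genes (8.06%). Of the members, 2017 lay in 1 gene, 22 in 2 overlapping genes and 3 in more than 2, where the host cannot be named. Of the 3, 1 lay in 6 genes and 2 lay in the same 24 overlapping gene models of the gamma protocadherin cluster. Counting only members with a single host, 1674 genes held one. Host genes were long: their median length was 48.3 kb, against 15.9 kb for the other genes. The share of genes with a member rose with length, from 161 of 7740 genes under 10 kb (2.08%, exact interval 1.77% to 2.42%) over 7.32% at 10 to 30 kb, 11.5% at 30 to 100 kb and 21.1% at 100 to 300 kb to 137 of 556 genes of 300 kb or more (24.6%, interval 21.1% to 28.4%).

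Per length, the order turned round. Gene interiors, the gene bodies without the 1 kb around every gene end, covered 986 Mb and held 2.07 members per Mb (exact Poisson interval 1.98 to 2.16). Sequence outside protein-coding genes, measured between the outermost genes or peaks of each chromosome, held 1.30 Foxf1 peaks per Mb (1.24 to 1.35), and the 1 kb zones around gene ends held 18.1 (17.2 to 19.1). Within genes the density was 9.30 per Mb in genes under 10 kb (interval 7.96 to 10.8), 5.06 at 10 to 30 kb, 2.60 at 30 to 100 kb, 1.66 at 100 to 300 kb and 0.633 (0.548 to 0.727) in the longest class. Genes of at least 100 kb made up 61.5% of the interior but held 684 members (33.5%, exact interval 31.4% to 35.6%).

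**Figure D1:**
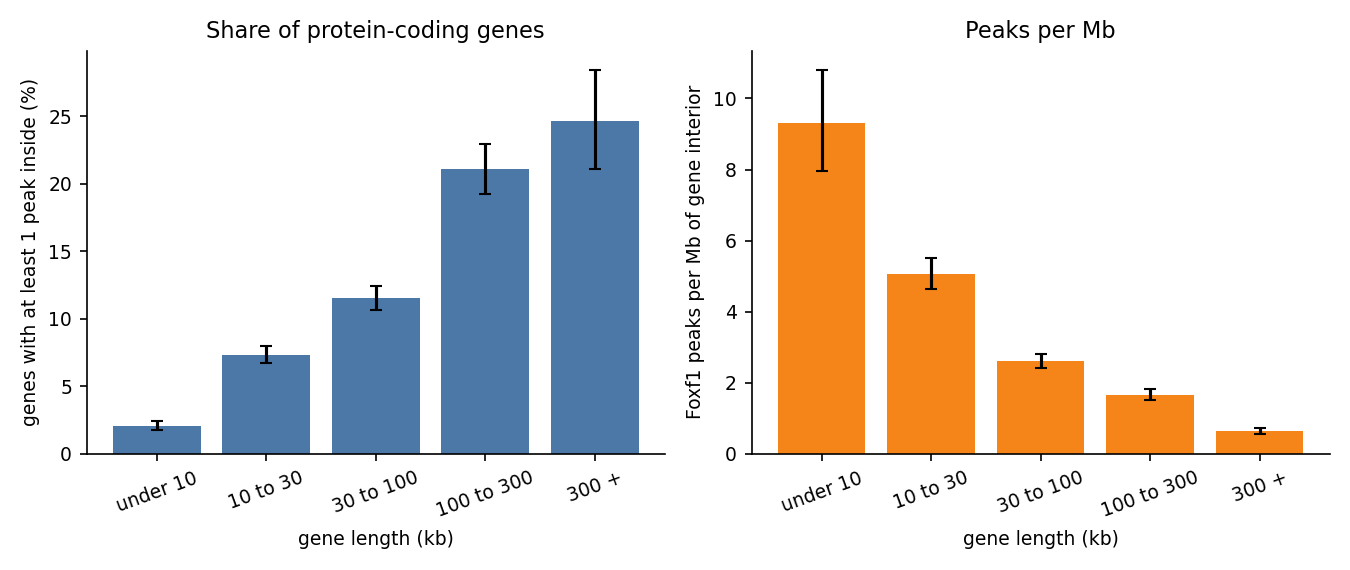
Share of protein-coding genes with at least 1 Foxf1 peak inside (left, %, bars with exact binomial 95% intervals) and Foxf1 peaks per Mb of gene interior (right, bars with exact Poisson 95% intervals), by gene length in kb. The share rises from 2.08% to 24.6% while the density falls from 9.30 to 0.633 per Mb.

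Density also fell with distance from the gene ends. Members were densest just beyond the limit, at 7.43 per Mb between 1 and 2 kb from a gene end (interval 6.59 to 8.35), and fell through 5.00, 3.02, 2.004 and 1.203 to 0.464 per Mb beyond 100 kb (0.377 to 0.565). At 1 to 2 kb the density was the same within its interval in genes under 100 kb (7.39, interval 6.49 to 8.39) and in longer genes (7.33, 5.31 to 9.87). Farther in, longer genes held fewer at the same distance. At 5 to 10 kb the values were 3.43 (3.06 to 3.83) and 1.65 (1.197 to 2.21) per Mb. At 30 to 100 kb they were 1.84 (1.37 to 2.41) and 1.13 (0.9996 to 1.27). The middle member lay 8.44 kb from the nearest gene end, 929 (45.5%) lay more than 10 kb away, and 98 more than 100 kb.

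**Figure D2:**
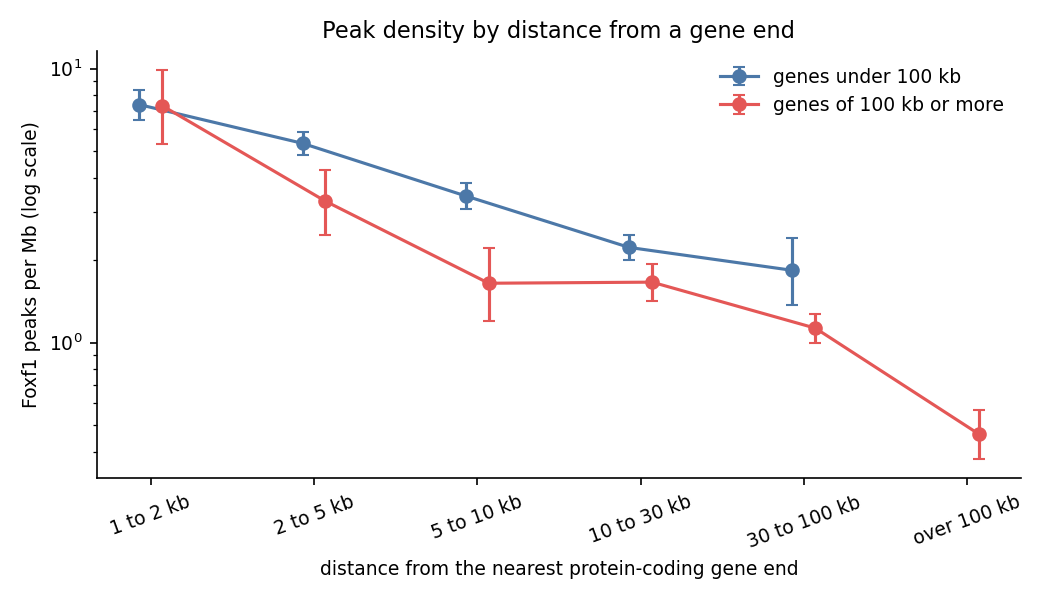
Foxf1 peaks per Mb (log scale, points with exact Poisson 95% intervals) by distance of the summit from the nearest protein-coding gene end, for genes under 100 kb and genes of 100 kb or more. Both start near 7.4 per Mb at 1 to 2 kb, and the longer genes reach 0.464 per Mb beyond 100 kb.

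The start of a gene was not favoured over its far end. The strand was known for the host of 1592 members with a single host, and 730 of these (45.9%, exact interval 43.4% to 48.3%) lay nearer the start than the other end. With each gene cut into 10 equal pieces from its start, a piece held from 8.67% to 13.7% of these members, and piece 9 held the most (218). In host genes of at least 20 kb, 231 members lay within 10 kb of the start and 260 within 10 kb of the other end (47.0% at the start, interval 42.6% to 51.6%). For members with no annotated start within 1 kb the counts were 162 and 251 (39.2% at the start, interval 34.5% to 44.1%). The ends of neighbouring genes were not taken into account beyond the 1 kb limit.

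Some members lay at internal starts. Chromosome 18 has no window in the table used here. Of the 1995 members on the other chromosomes, 103 (5.16%, exact interval 4.23% to 6.23%) had a summit within 250 bp of an annotated start, for 88 of them a start of the host gene. Within 1 kb it was 211 (10.6%), with 163 at the host. How much of the gene interior lies this close to a start was not calculated, so these shares show no excess or lack. The 103 had a median fold of 7.95 and a median of 36 fragments, against 7.61 and 27 for the other 1892, and their median control level was also higher, 3.66 against 2.68. The part of the control level in this difference was not tested. Genes that do not code for protein covered 130 summits (6.37%), and lncRNA genes covered 121 of these. The share of the gene interior that such genes cover was not calculated, so no excess or lack can be read from these counts.

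Several members in 1 gene were found in 299 genes (1.38% of all protein-coding genes), which held 624 of the 2042 members. Of these genes, 28 shared a member with an overlapping gene, most of them the 24 of the protocadherin cluster with their 2 common peaks, and 272 held at least 2 members that lay in no other gene. Of the 299, 251 held 2 members and 48 (0.222%) held 3 or more. Among genes of 300 kb or more 7.55% held several, against 0.116% of genes under 10 kb. Neighbouring summits in a gene were a median of 16.7 kb apart. Of 348 neighbour pairs, 29 were within 1 kb, 116 at 1 to 10 kb, 119 at 10 to 50 kb and 84 farther apart, up to 1018 kb. In 15 of the 299 genes all members belonged to 1 deposited region with several summits, so they are not separate sites in the list.

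Gse1, which encodes a coiled-coil protein of a histone demethylase complex, held the most, with 10 members in 10 regions over 353 kb (chr8:120228501-120581383). The folds, in order of position, were 7.16, 15.05, 9.46, 6.72, 9.62, 5.57, 6.24, 7.40, 9.55 and 10.7. The strongest, at chr8:120300802-120301517, held 58 fragments, and control levels over the 10 ran from 2.54 to 6.09. They lay between 60.1 kb and 342 kb from its start, and no Foxf1 peak lay within 1 kb of its own ends. Cacna1a, the pore subunit of the P/Q-type calcium channel, held 6 members with folds of 6.41 to 8.78. They formed a pair 19.4 and 25.3 kb from one end and a group of 4 between 45.6 and 85.8 kb from the other. Lrmda, a leucine-rich repeat gene of 1037 kb linked to melanocyte differentiation, also held 6, with folds of 6.89 to 10.2 and between 18 and 27 fragments.

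Zfp469 and Tspan9 each held 5 members, with folds of 6.14 to 8.85 and 5.90 to 8.42. At one Zfp469 summit the control level was 7.79, just under the limit for a high level. Of these 5 genes with the most members, Gse1, Cacna1a and Zfp469 are on chromosome 8 and Tspan9 on chromosome 6, where control levels were higher, as given further on. The genes with 4 members were Ralgds (folds 5.80 to 12.0), Capzb (7.46 to 9.39), Cfap57 (5.69 to 11.05), Zfp281 (6.25 to 9.24), Trak1 (6.38 to 9.86), Rbfox3 (6.99 to 8.57) and Prkag2 (5.40 to 6.99). Ralgds encodes an exchange factor for Ral GTPases and Capzb the beta subunit of actin capping protein. All 4 summits of Zfp281, a zinc finger repressor gene of 5.49 kb, lay in 1 region (chr1:136625008-136627985) that begins near its start.

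**Figure D3:**
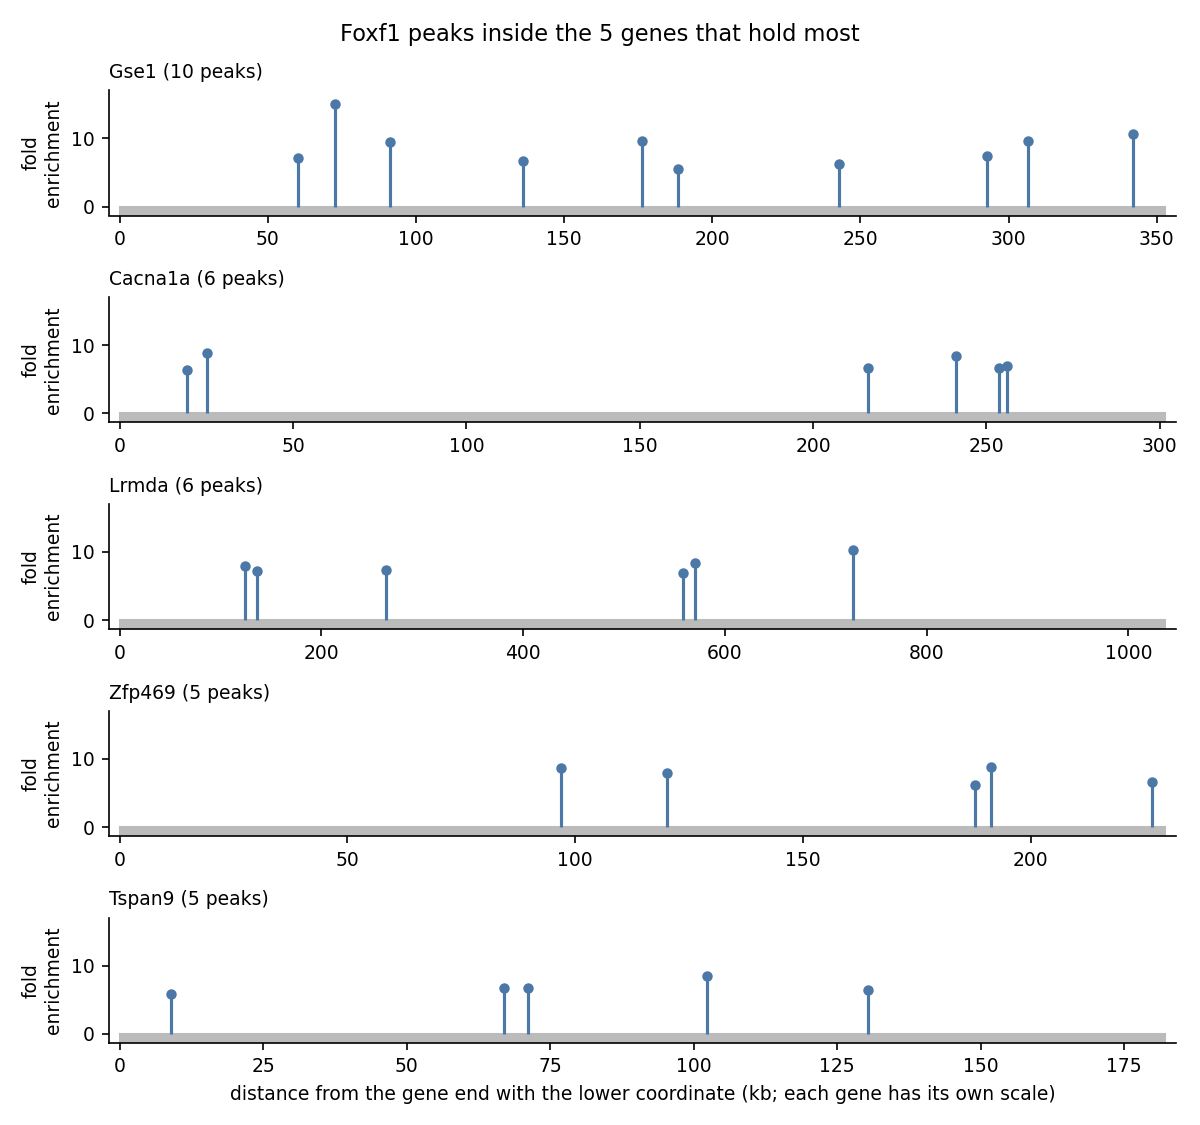
Foxf1 peaks (points, height is the authors' fold enrichment) along the 5 genes with most of them, as distance in kb from the gene end with the lower coordinate; the grey bar is the gene. The 10 peaks of Gse1 spread over most of the gene, while the 6 of Cacna1a fall into 2 groups.

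Among genes with at least 3 members, density was highest in short ones. After Zfp281 (728 per Mb of gene) came Ap5b1 (272 per Mb, 3 summits in 2 regions), Hook2 (206 per Mb, 3 summits in 2 regions), P2rx1 (186 per Mb, 3 regions) and Pdxk (106 per Mb, 3 regions). In P2rx1, an ATP-gated channel gene of 16.1 kb, the folds were 9.15, 6.38 and 6.53. In Pdxk, pyridoxal kinase, they were 9.55, 10.8 and 7.40, all within 4.25 kb of the gene's far end. Hook2 summits lay 595 and 113 bp from annotated starts of the gene, with folds of 9.48 and 8.07.

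Functions were then compared at equal gene length. For each of 16 lists of textbook genes, the number of host genes was set beside the number that would result if each listed gene had the share of all protein-coding genes in its length class (the length-standardised number). The ratio was above 1 for 15 of 16 lists, and its interval, from the exact binomial interval of the share, included 1 for 14. The reference includes predicted gene models: those with Gm, Rik or LOC symbols had a ratio of 0.574, and genes with other symbols than these and the Olfr and Vmn receptors had 1.05. A ratio a little above 1 is therefore near the background. The lists describe where members lie and were not tested against each other.

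The Wnt pathway, whose secreted ligands pattern the mesoderm, had 13 host genes of 63 (20.6%) against a length-standardised 6.84, a ratio of 1.9003 (interval 1.06 to 3.01). These held 18 members, 4.63 per Mb of interior. The 4 hosts with more than 1 member held 9 of the 18. Of the ligand genes, Wnt5b held 3 summits in 2 regions (folds 4.82 to 6.23), Wnt11 a pair at 1.79 and 3.02 kb from its start (6.41 and 7.92), and Wnt9b a pair (6.38 and 7.65). The Wnt5b summits that share a region lay 563 and 134 bp from annotated starts of the gene. Those in Wnt11 lay 778 and 746 bp from annotated starts, the latter a start of Wnt11. Tcf7l1, a repressor at Wnt targets, held a pair of folds 6.71 and 7.70. Wnt5b control levels reached 5.84, on chromosome 6.

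Hedgehog genes had 5 hosts of 21 (23.8%) against 2.36, a ratio of 2.12 with a wide interval of 0.731 to 4.20. Sufu, the cytoplasmic inhibitor of Gli factors, held the strongest (chr19:46435498-46436325, fold 16.7, 55 fragments, 38.9 kb from its start). Kif7, a ciliary kinesin of the pathway, held 1 of fold 9.84, Evc 1 of 7.40 and the ligand gene Ihh 1 of 6.33. In the Notch list 5 of 27 genes were hosts against 2.65 (ratio 1.88, 0.641 to 3.88), and the ratio was 1.07 with a limit of 5 kb from gene ends. The receptor gene Notch3 held 2 (7.49 and 7.67), the ligand gene Dll3 1 (7.83), the target Hey1 1 (9.69) and the coactivator gene Maml3 1 (7.68).

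BMP and TGF-beta genes had 7 hosts of 41 against 4.70 (ratio 1.49, 0.624 to 2.80). They included Acvrl1, an endothelial receptor (fold 9.72), and the co-receptor gene Tgfbr3 (8.78). Ltbp2 (8.93) and Ltbp4 (5.39 and 5.07), of the latent TGF-beta binding protein family, were also hosts. FGF and other receptor tyrosine kinase genes had 5 hosts of 40 against 4.32 (ratio 1.16, 0.388 to 2.48). Pdgfra, a receptor of mesoderm and mesenchyme, carried 2 summits in 1 region 4.52 and 5.05 kb from its start (6.86 and 8.17), and Igf1r 2 separate ones (7.12 and 7.91). Fgf1 (8.48, in an overlap with another gene) and Spred2 (7.79) had 1 each.

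Genes of axon guidance families, which also steer vessels and mesenchyme, had 18 hosts of 61 (29.5%) against 9.58, a ratio of 1.88 (1.18 to 2.71). These hosts held 22 members. Per Mb of interior the list, with a median gene length of 115 kb, held 1.69 members (1.06 to 2.55), 0.814 times the value of all genes. The Ephrin receptor gene Ephb2 held 3 (folds 7.89, 10.1 and 8.94), Slit3 2 (6.99 and 11.5), Plxna4 2 (8.46 and 8.16) and Slit1 1 (11.1). With peaks of −log10 q-value of at least 15 the ratio was 2.75, and with a limit of 5 kb from gene ends it was 1.44. With the 5 kb limit the Wnt ratio was 1.40.

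Cardiac and mesoderm transcription factors had 11 hosts of 60 (18.3%) against 5.80, a ratio of 1.896 (0.985 to 3.15). Apart from Ebf2, these were led by Ebf3 with 2 (7.34 and 7.47) and by Mecom with 1 of fold 13.7, only 1.23 kb from its start. Endothelial and blood progenitor genes had 7 of 40 against 4.41 (1.59, 0.666 to 2.97). In Vwf, the von Willebrand factor gene, 3 members had folds of 6.50, 6.38 and 8.40, and Egfl7 (8.34), Flt4 (6.89) and Vegfa (6.02) held 1 each. With peaks of −log10 q-value of at least 15 the ratio of this list was 0.896.

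For muscle genes the intervals were wide and included 1. The sarcomere and cardiac muscle list had 7 of 38 against 4.74 (ratio 1.48, 0.621 to 2.75). Besides Dmd it held Palld, an actin scaffold gene, with 3 members of fold 9.90, 16.9 and 9.13, Cacna1c with 2 (6.24 and 6.72), and Ldb3, a Z-disc gene, with 1 (7.84). Smooth muscle genes had 5 of 25 against 3.06 (1.63, 0.558 to 3.32): Smtn (9.73), Pde5a (9.69), Mylk, the myosin light chain kinase gene (6.81), and Tpm1 (7.29) were among them. Extracellular matrix genes, with 9 of 56 against 8.38, had a ratio of 1.07 (0.509 to 1.89). Their strongest members lay in the basement membrane collagens Col18a1 (15.3) and Col15a1 (12.5), ahead of Col4a1 (9.24) and the laminin gene Lama5 (9.12).

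The long neuronal genes show what the correction does. Of 77 synapse and ion channel genes with a median length of 494 kb, 18 were hosts (23.4%) against 8.06% of all genes, but the length-standardised number was 17.5 and the ratio 1.03 (0.636 to 1.51). Per Mb of interior this list held 0.581 members, 0.281 times the value of all genes. Dlgap1 held 3 (11.6, 8.18 and 6.45) and Shank2 2 (7.40 and 8.35), beside Cacna1a and Rbfox3. Cadherins and integrins had 9 of 48 against 8.33 (1.08, 0.516 to 1.88), with 2 each in Cdh13 (9.40 and 8.14) and Itgb4 (6.45 and 7.98) and 1 in Itga5 (9.35) and Pcdh15 (7.05). Chromatin regulators had 12 of 70 against 9.40 (1.28, 0.684 to 2.09), with 2 each in Dot1l, Kdm2b and Chd9 at folds of 5.24 to 7.04.

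The ends of the range were both short-gene lists. Pluripotency genes (median length 10.6 kb) had 5 hosts of 33 against 2.295, a ratio of 2.18 (0.734 to 4.59), and with peaks of −log10 q-value of at least 15 the ratio was 4.19. Stat3 (11.2), Esrrb (9.16) and Klf4 (9.06), transcription factors of the naive stem cell state, held 1 each, beside the 2 in Tcf7l1. Proteasome and respiratory chain genes, which every cell uses (median length 10.1 kb), had 1 host of 69 against 3.74, a ratio of 0.267 (0.00676 to 1.44). The intervals of both lists include 1, and the difference between the lists was not tested.

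**Figure D4:**
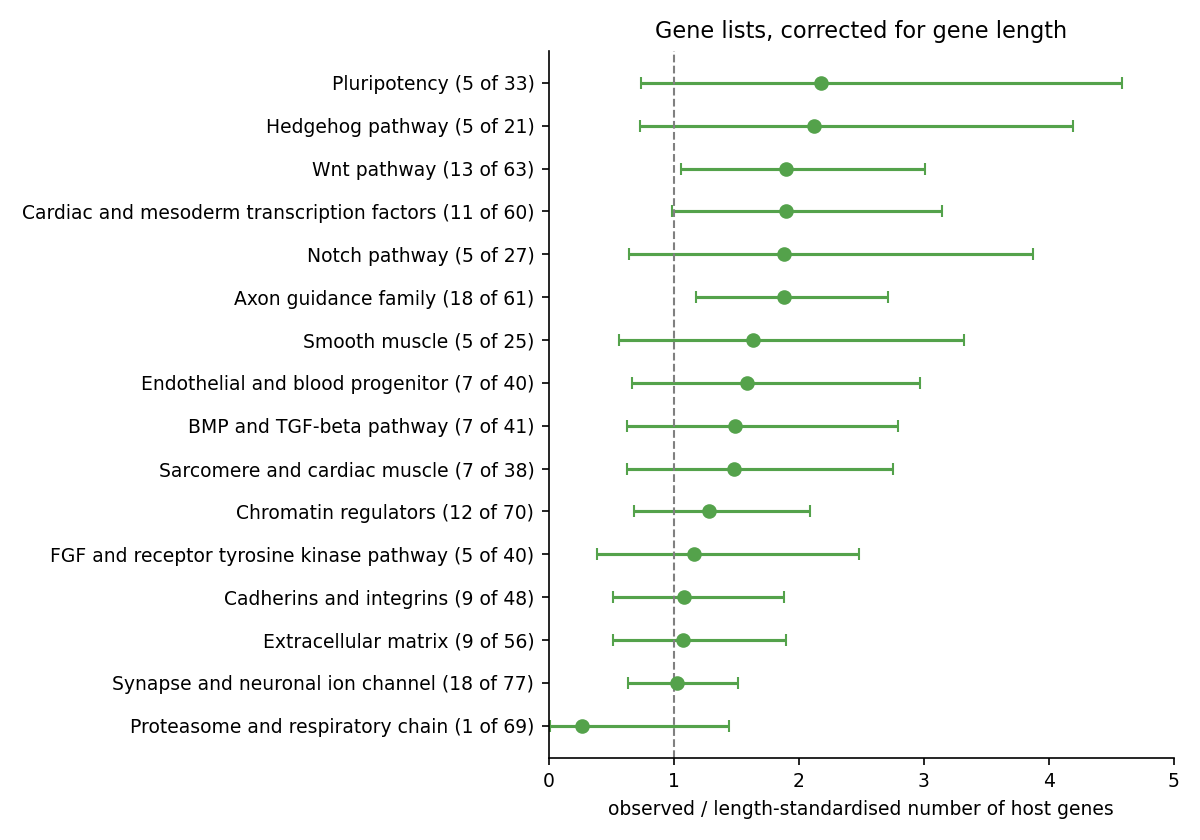
Ratio of the observed number of host genes to the length-standardised number for 16 gene lists (points, with intervals from exact binomial 95% limits; hosts of matched genes in brackets; dashed line at 1). The ratios run from 0.267 to 2.18, and 2 lists, Wnt and axon guidance, have intervals above 1.

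The density of members and the control level both differed between chromosomes, but they did not go together throughout. Chromosome 8 held 4.12 members per Mb of interior (exact Poisson interval 3.57 to 4.73) and chromosome 6 held 2.85 (2.44 to 3.31), with median control levels of 3.65 and 3.41. The other 17 autosomes ranged from 0.859 on chromosome 13 to 3.64 on chromosome 11, with median control levels of 2.26 to 2.74. Chromosome 11 was thus dense at an ordinary control level. Chromosome 7 held 2.86 per Mb, close to chromosome 6, at a median control level of 2.68. Chromosome 12, at 2.74, held only 1.59 per Mb. The X chromosome held 9 members in 43.8 Mb, 0.206 per Mb (0.0941 to 0.390), with a median control level of 1.57, the lowest in the list. The part of the control level in these densities was not tested. Without chromosomes 6 and 8 there were 1671 members in 1456 genes and 1.904 per Mb.

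**Figure D5:**
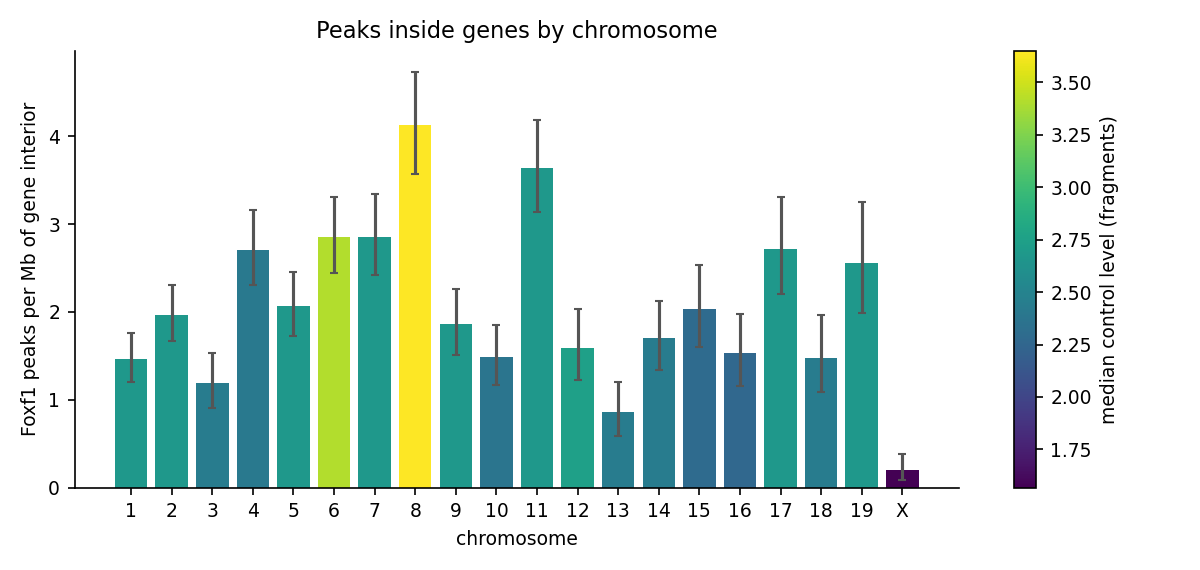
Foxf1 peaks per Mb of gene interior by chromosome (bars with exact Poisson 95% intervals), coloured by the median control level of these peaks in fragments. Chromosome 8 is highest at 4.12 with the highest control level of 3.65, and X is lowest at 0.206 with the lowest, 1.57.

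A Foxf1 peak at the gene's own ends, which by the rule is not a member, was counted next. Peaks that overlap a Hand1 peak were left out of this count. A deposited region with several summits can give both a member and an end peak, so the same site may count for both. Such regions were not set apart. Of all protein-coding genes 6.99% had one within 1 kb of either end. Among genes of 10 to 30 kb it was 60 of 468 hosts (12.8%) against 7.23% of the other genes, and at 30 to 100 kb 60 of 584 (10.3%) against 6.60%. Under 10 kb it was 17 of 161 (10.6%) against 5.83%. At 100 to 300 kb, with 36 of 394 (9.14%) against 7.86%, and at 300 kb or more, with 15 of 137 (10.9%) against 10.0%, the shares were closer. Hand1 peaks inside genes, from the library at the MES stage, occurred in 0.999% of protein-coding genes. They were found in 17 of 584 hosts of 30 to 100 kb (2.91%) against 44 of the other genes of that length (0.981%), and in 24 of 394 hosts of 100 to 300 kb (6.09%) against 53 others (3.59%). The shares were 3 of 468 (0.641%) against 0.439% at 10 to 30 kb, 11 of 137 (8.03%) against 5.97% at 300 kb or more, and 1 of 161 (0.621%) against 0.158% under 10 kb. Length varies within these classes, and neither difference was tested.

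Among the members, 2 regions overlapped microRNA hairpins. In Rtl1, an imprinted gene derived from a retrotransposon, the peak chr12:109594614-109595335 (fold 6.13, 26 fragments) covered the hairpin of Mir432 and reached the nearer ends of Mir3071 and Mir136, which are read from opposite strands of 1 stretch. In Tlcd1, the peak chr11:78177347-78178883 (fold 7.87, 33 fragments) overlapped the hairpin of Mir7653. Exons, introns and untranslated regions were not analysed here.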

How the data were processed

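Per the submitters' processing notes, the tools were Trim Galore 0.6.6, Bowtie2 2.3.4.3, SAMtools 1.9, deepTools 3.5.0 and MACS2 2.2.7.1 and the build was mm10 (GRCm38). The control and whether replicates were pooled are not given in the sources used here. The deposited lists have no header. For each summit they give the authors' fold enrichment (a ratio), the −log10 of its p-value and of its q-value, and a deposited score of 10 times the −log10 p-value. The lowest −log10 q-value was 10.0.

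Each line was treated as 1 peak. Depth is not given. Fragments k and control level λ were solved from fold = (k + 1)/(λ + 1) and the Poisson p-value, taking the higher λ; k was whole within 0.05 for 100% of peaks. Of the 5703 lines, 65 on other sequences were left out. Python 3.11.15, pandas 2.3.3 and scipy 1.17.1 were used, and the scripts were tested on simulated data. All 754 list genes matched the RefSeq table, and 17273 protein-coding genes had a strand. Shares have exact Clopper-Pearson and densities exact Poisson 95% intervals. Peaks in a gene are not independent, and the list cannot be repeated, so intervals understate the error.

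Named genes were the hosts of the 15 members of highest fold, the 12 hosts with most members, the 5 densest hosts of at least 3 members, and up to 4 hosts per list; some of these and 1 further list are not reported here. The members, lists and rules were chosen with earlier results of these data known. Motif tests around all summits had been intended and were left out, since only promoter windows gave sequence. The closing section gives the effect of other settings.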

Additional observations from a re-analysis of the deposited data

How the results depend on the processing

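Of 200 alternatives over 23 results, 186 stayed within the counting interval, within 1.5 times the count, or on the same side of the 0.05 threshold. A limit of 5 kb from gene ends left 1285 members in 1099 genes, 192 of them with several, 1.51 members per Mb and 45.6% of members in genes of at least 100 kb; the proteasome and respiratory chain list then had a ratio of 0. A −log10 q-value of at least 15 left 953 members in 888 genes, 105 of them with several, and 0.967 per Mb. The ratio was then 2.75 for axon guidance (1.44 with the 5 kb limit), and the odds ratio of a high control level against peaks near gene ends was 0.490 (Fisher's exact test, p = 0.112). Both settings leave fewer peaks by construction. Without chromosomes 6 and 8 the density was 1.904 per Mb. With a high control level from 3 times the lowest, the odds ratio against peaks outside genes was 0.894 (Fisher's exact test, p = 0.358); the cause was not tested. The use of 20 equally large length classes was chosen after seeing the data, and moved no list ratio beyond its interval. Extracellular matrix (0.992 to 1.45), cadherins and integrins (0.580 to 1.23), endothelial and blood progenitor (0.896 to 1.65) and synapse genes (0.834 to 1.12) lay on either side of 1 over 9 alternatives each. Tests of the forkhead motif were not run for want of sequence around most summits. No paired analysis was possible because the peaks come from a single Foxf1 list, and leaving out a replicate was not possible for the same reason.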
